A study of Mus musculus with 6 samples.

Results

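Endothelial cells are held together by adherens junctions, in which VE-cadherin binds its like on the neighbouring cell, and by tight junctions, built from claudins and from the junctional adhesion molecules (JAMs) of the immunoglobulin superfamily. Sialomucins are heavily glycosylated, sialic acid-bearing proteins of the vessel surface. Suitably decorated, CD34 and podocalyxin can be bound by L-selectin on leukocytes, and their bulk and charge can also hold surfaces apart. In bone marrow several of these proteins are also known from blood stem cells, megakaryocytes or stromal cells, so those do not mark endothelium alone.

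The 10 genes described here were listed by name for their place in endothelial junctions or among sialomucins, and all 10 were found among the 19938 genes measured. They comprised 7 junction genes (Pecam1, Cdh5, Esam, Cldn5, Jam2, Jam3 and F11r) and 3 sialomucin genes (Emcn, Cd34 and Podxl). Mouse primary bone marrow was dissociated and sorted for cells without CD45 and Ter119, the markers of leukocytes and of red cell precursors, and with CD73, a surface enzyme that makes adenosine. These cells were divided by CD105 (endoglin) into CD73+CD105- samples (n = 3) and CD73+CD105+ samples (n = 3), and RNA of each was hybridised to 1 array. Strain, age and animal numbers were not given in the sources used here, and no treatment or genotype separates the groups. The labels call the samples biological replicates without naming separate animals, and the p-values reflect only how far these samples spread.

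Values are log2 expression values made by the authors with RMA, and every difference is CD73+CD105+ minus CD73+CD105- on that scale, tested with limma over all genes and adjusted by Benjamini-Hochberg with a threshold of 0.05. Medians of the arrays ranged from 6.27 to 6.35. Precision is limited by having 3 arrays a group, with a median standard error (SE) of 0.0928 for a difference. Levels of different genes come from different probes and are not compared with each other. As a rough guide to dimness, the 95th percentile of the mean levels of 1179 olfactory and vomeronasal receptor genes was 6.02. Eng, which encodes CD105, was at 6.20, 6.55 and 6.15 in CD73+CD105- and 8.27, 7.79 and 8.12 in CD73+CD105+ replicates 1, 2 and 3. Nt5e, which encodes CD73, was lower on every CD73+CD105+ array at -0.26 and did not pass (adjusted p = 0.183). Ptprc, which encodes CD45, lay between 4.66 and 4.76 on all 6 arrays. Averaged over both populations, replicate 1 nearly matched the average of the 4 remaining arrays in most genes: the SD of that gap over genes was 0.0423, against 0.122 to 0.168 for other pairs of 1 array from each population. The labels say nothing of this, and whether the values were changed after RMA is not stated. If replicate 1 was brought into balance with the other arrays, the arrays are not independent and p-values from the fit without a term for it can be too small. Results are therefore also given with a term for replicate 1 in the fit and in replicates 2 and 3 alone. In these bulk samples, fewer cells of a type and less RNA per cell cannot be told apart.

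Junction and sialomucin transcripts were mostly higher in CD73+CD105+ cells. Of the 10 genes, 8 rose, 0 fell and 2, Cldn5 and Jam3, did not pass; over all genes 1.35% rose. Endomucin (Emcn), PECAM-1 (Pecam1) and VE-cadherin (Cdh5) differed most, at 24.4, 12.4 and 10.1 times the CD73+CD105- level. F11r and Cd34 followed at 3.22 and 2.73 times, and Jam2, Podxl and Esam at 1.81, 1.71 and 1.67 times. In 5 of them (Pecam1, Emcn, Esam, F11r and Podxl) the CD73+CD105- mean was below the receptor gene percentile, where RMA compresses differences, so their folds may be understated. The median difference over the 10 genes was 1.15, against -0.02 over all genes. In 9 of the 10 every CD73+CD105+ array lay above every CD73+CD105- array, which held for 10.7% of all genes. With the term for replicate 1, 6 of the 10 passed (0.476% of all genes rose), and in replicates 2 and 3 alone 4 did (Pecam1, Cdh5, Emcn and F11r; 0.14% of all genes rose).

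**Figure D1:**
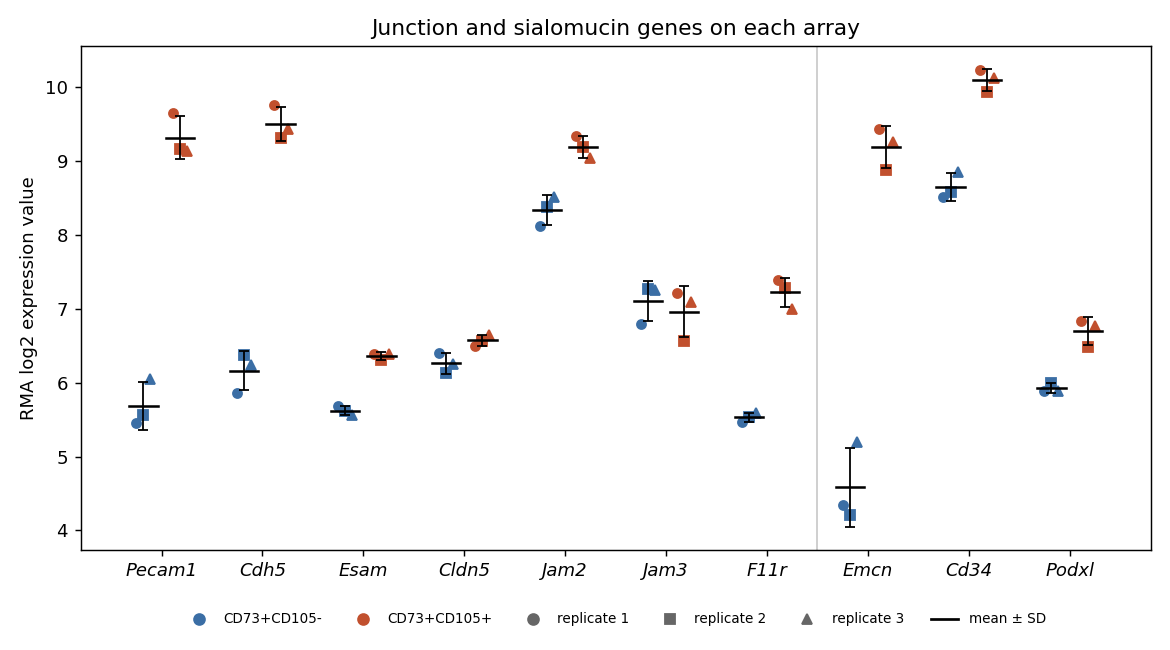
RMA log2 expression value (y axis) of each junction gene (left of the grey line) and sialomucin gene (right of it) on each of the 6 arrays; blue marks CD73+CD105- and orange CD73+CD105+ samples, symbols mark replicate numbers, and black bars give mean ± SD (n = 3). Emcn, Pecam1 and Cdh5 show the widest gaps between the groups, and only in Jam3 do the groups overlap.

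The RefSeq promoter table (GRCm38.p6) held 4 of the 10 genes, and the 250 bases before the annotated start are printed for them because they include the gene with the largest difference (Emcn), 2 others that rose (F11r and Cd34) and 1 that did not pass (Cldn5). Capitals mark the letters AGGAAG on either strand, a form of the site bound by ETS transcription factors, the family of Erg and Fli1 that acts in endothelial and blood cells.
Emcn, chr3:137340828-137341077, plus strand: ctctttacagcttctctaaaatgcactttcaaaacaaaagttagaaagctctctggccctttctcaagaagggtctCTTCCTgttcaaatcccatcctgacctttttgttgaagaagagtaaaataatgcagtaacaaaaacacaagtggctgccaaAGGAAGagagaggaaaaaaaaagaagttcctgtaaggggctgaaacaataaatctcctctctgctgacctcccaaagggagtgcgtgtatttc
Cd34, chr1:194938571-194938820, plus strand: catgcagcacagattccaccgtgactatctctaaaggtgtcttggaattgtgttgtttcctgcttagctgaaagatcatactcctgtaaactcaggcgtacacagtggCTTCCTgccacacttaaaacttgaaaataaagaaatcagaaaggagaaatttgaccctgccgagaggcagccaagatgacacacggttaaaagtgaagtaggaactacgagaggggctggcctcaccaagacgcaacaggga
F11r, chr1:171437311-171437560, plus strand: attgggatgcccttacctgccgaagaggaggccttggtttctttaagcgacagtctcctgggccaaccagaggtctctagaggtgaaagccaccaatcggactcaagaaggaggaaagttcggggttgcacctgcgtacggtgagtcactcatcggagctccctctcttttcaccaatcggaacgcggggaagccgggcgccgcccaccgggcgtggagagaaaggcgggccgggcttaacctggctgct
Cldn5, chr16:18776597-18776846, plus strand: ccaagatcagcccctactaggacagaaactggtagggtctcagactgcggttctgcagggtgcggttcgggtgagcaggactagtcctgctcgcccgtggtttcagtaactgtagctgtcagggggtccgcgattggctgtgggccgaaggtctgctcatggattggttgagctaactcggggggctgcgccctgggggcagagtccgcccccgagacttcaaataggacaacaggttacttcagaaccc

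AGGAAG occurred at 2 places in the Emcn window and at 1 in the Cd34 window, while the F11r and Cldn5 windows held 0. Of all 32851 promoter windows of the same length, 29.5% held it at least at 1 place, so its presence is common. The shorter core GGAA occurred 4, 5, 3 and 0 times on either strand in the Emcn, Cd34, F11r and Cldn5 windows, against a median of 3 over all windows. Each AGGAAG holds a GGAA, so these counts overlap. The same windows were also searched for letters of GATA sites (AGATAA), AP-1 sites (TGANTCA, N being any base) and the TATA box (TATAAA). The only match was 1 of AP-1 in the F11r window, and 6.75% of all windows held AP-1 letters. GC content differed between the windows, at 40.8% for Emcn and 46.4% for Cd34 against 60% for F11r and 59.6% for Cldn5. A match describes letters and not a bound site.

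Cdh5 encodes VE-cadherin, the calcium-dependent adhesion protein on which endothelial adherens junctions are built. It was at 5.87, 6.37 and 6.24 in CD73+CD105- and at 9.75, 9.31 and 9.44 in CD73+CD105+ replicates 1, 2 and 3. The lowest CD73+CD105+ array therefore lay 2.94 above the highest CD73+CD105- array, a gap wider than the spread within either group (SD 0.26 and 0.23, n = 3 each). The difference was 3.34 (SE 0.16, 95% interval 2.96 to 3.72, adjusted p = 0.000272), and among 19938 genes it ranked 9th from the top. It passed with the term for replicate 1 (adjusted p = 0.00105) and in replicates 2 and 3 alone (difference 3.07, adjusted p = 0.00529).

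Pecam1 encodes PECAM-1 (CD31), an immunoglobulin-like adhesion molecule concentrated where endothelial cells meet and also found on platelets and leukocytes. It was at 5.45, 5.56 and 6.06 in CD73+CD105- and at 9.65, 9.16 and 9.13 in CD73+CD105+ replicates 1, 2 and 3. Replicate 3 was the highest of its group in CD73+CD105- cells and replicate 1 the highest in CD73+CD105+ cells, and the groups stood 3.08 apart at their nearest arrays. The difference was 3.63 (SE 0.20, 95% interval 3.16 to 4.09, adjusted p = 0.000356). The 9 leukocyte genes measured held 0 past the threshold and 1 at an unadjusted p under 0.05 in limma (17.7% of all genes were), with a median difference of 0.00509. Their mean level was 5.35 to 5.41 in CD73+CD105- and 5.35 to 5.54 in CD73+CD105+ samples, and in both populations 7 were below the receptor gene percentile. The groups did not overlap in 2 of the 9, both higher in CD73+CD105+ cells, which held for 10.7% of all genes. Lyz2, lysozyme of myeloid cells, was 1 of these 2, at 0.38 (adjusted p = 0.0731). In Cd68, of macrophages, the groups overlapped, with a difference of 0.16 (adjusted p = 0.634).

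The JAM family gave 3 different pictures. F11r encodes JAM-A, which sits at tight junctions of endothelium and epithelium and on platelets and leukocytes. It was at 5.47, 5.54 and 5.60 in CD73+CD105- and at 7.39, 7.28 and 6.999 in CD73+CD105+ replicates 1, 2 and 3, and rose by 1.69 (SE 0.11, 95% interval 1.43 to 1.94, adjusted p = 0.000779). The CD73+CD105- arrays were close together (SD 0.06).

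Jam2 encodes JAM-B, an endothelial and stromal partner of JAM-C. It was at 8.12, 8.38 and 8.52 in CD73+CD105- and at 9.34, 9.20 and 9.04 in CD73+CD105+ replicates 1, 2 and 3. Its groups did not overlap, though the nearest arrays were 0.52 apart. The rise of 0.85 (SE 0.12, 95% interval 0.56 to 1.15, adjusted p = 0.0229) did not pass with the term for replicate 1 (adjusted p = 0.0711) or in replicates 2 and 3 alone (difference 0.67, adjusted p = 0.236). It was also lost without CD73+CD105- replicate 1 (0.0681) or 2 (0.073) and without CD73+CD105+ replicate 1 (0.0895) or 2 (0.0565).

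Jam3 encodes JAM-C, which binds JAM-B. It was at 6.80, 7.26 and 7.26 in CD73+CD105- and at 7.21, 6.57 and 7.10 in CD73+CD105+ replicates 1, 2 and 3. The groups overlapped, with the lowest of all 6 values in CD73+CD105+ replicate 2. Its difference of -0.15 did not pass (SE 0.20, 95% interval -0.61 to 0.31, adjusted p = 0.746), and its sign turned in the replicate 1 arrays (0.41), without CD73+CD105+ replicate 2 (0.048) and with arrays weighted by their quality (0.066). The interval of Jam3 lies below that of Jam2, while the difference between the 2 genes was not tested.

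Esam encodes an immunoglobulin-like adhesion molecule of endothelial tight junctions that platelets also carry. It was at 5.69, 5.62 and 5.56 in CD73+CD105- and at 6.39, 6.31 and 6.39 in CD73+CD105+ replicates 1, 2 and 3. The shift was modest but the arrays of each group lay close together (SD 0.07 and 0.05). It rose by 0.74 (SE 0.07, 95% interval 0.57 to 0.90, adjusted p = 0.00508) and passed with the term for replicate 1 (0.0232). In replicates 2 and 3 alone the difference was 0.76, no smaller, and the adjusted p was 0.141.

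Cldn5 encodes claudin-5, the main claudin of endothelial tight junctions and best known from the blood-brain barrier. It was at 6.41, 6.13 and 6.26 in CD73+CD105- and at 6.50, 6.57 and 6.64 in CD73+CD105+ replicates 1, 2 and 3. The groups did not overlap, but their nearest arrays were only 0.10 apart. Its difference of 0.31 did not pass over all genes (SE 0.09, 95% interval 0.10 to 0.52, unadjusted p = 0.0106, adjusted p = 0.144). At 1.24-fold, with an interval of 1.07 to 1.43, its upper bound lies below the lower bound of Cdh5 (7.79-fold) and Pecam1 (8.97-fold).

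Emcn encodes endomucin, a sialomucin of venous and capillary endothelium that is used to mark marrow sinusoids. It was at 4.35, 4.21 and 5.20 in CD73+CD105- and at 9.44, 8.89 and 9.26 in CD73+CD105+ replicates 1, 2 and 3. CD73+CD105- replicate 3 stood above the other arrays of its group, and every CD73+CD105+ array was at least 3.69 higher than it. Emcn rose by 4.61 (SE 0.27, 95% interval 3.98 to 5.24, adjusted p = 0.00047), which ranked 2nd among 19938 genes. The 95% interval of its fold was 15.8 to 37.7. Its CD73+CD105- mean was 4.58.

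Cd34 and Podxl belong to 1 family of sialomucins. CD34 marks blood stem and progenitor cells, endothelium and some stromal progenitors. Cd34 was at 8.51, 8.58 and 8.86 in CD73+CD105- and at 10.23, 9.93 and 10.13 in CD73+CD105+ replicates 1, 2 and 3, so the transcript stood well above the receptor gene percentile in both populations. It rose by 1.45 (SE 0.12, 95% interval 1.17 to 1.73, adjusted p = 0.00264). It passed with the term for replicate 1 (0.0112) and not in replicates 2 and 3 alone (difference 1.31, adjusted p = 0.083).

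Podxl encodes podocalyxin, known from podocytes, endothelium and early blood cells. It was at 5.88, 6.001 and 5.89 in CD73+CD105- and at 6.84, 6.48 and 6.77 in CD73+CD105+ replicates 1, 2 and 3, the nearest arrays being 0.48 apart. Podxl rose by 0.78 (SE 0.11, 95% interval 0.53 to 1.02, adjusted p = 0.0194), but it did not pass with the term for replicate 1 (0.0596) or in replicates 2 and 3 alone (difference 0.68, adjusted p = 0.275). Leaving out CD73+CD105- replicate 1, 2 or 3 gave an adjusted p of 0.0828, 0.0554 or 0.0521, and leaving out CD73+CD105+ replicate 1 or 3 gave 0.0707 or 0.0682.

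In order of difference, the 95% intervals of Emcn and Pecam1 overlapped, as did those of Pecam1 and Cdh5. The interval of Cdh5 lay above that of F11r, whose interval overlapped that of Cd34. Jam2, Podxl and Esam had overlapping intervals, and Cldn5 and Jam3 overlapped at the bottom of the order. The order among neighbours with overlapping intervals is not settled by these arrays.

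**Figure D2:**
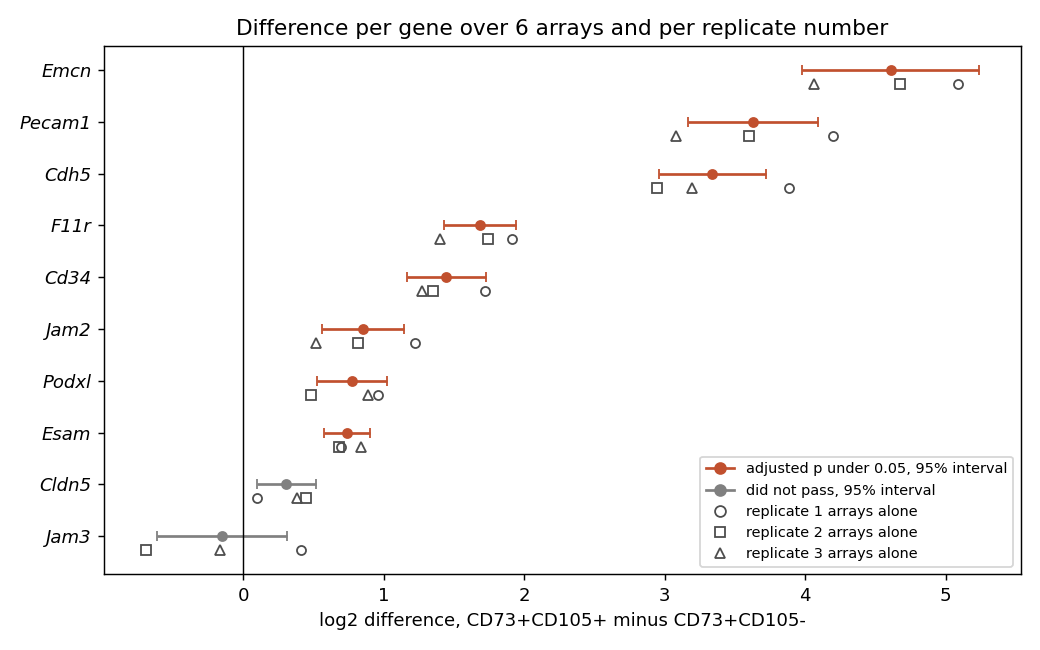
Log2 difference, CD73+CD105+ minus CD73+CD105- (x axis), of each gene: filled circles with bars are the limma estimate over 6 arrays with its 95% interval, orange where the adjusted p was under 0.05, and open symbols are the differences between arrays of the same replicate number. The 8 genes that passed lie right of 0 for all 3 replicate numbers, with replicate 1 on the far right in 7 of them, and Jam3 falls on both sides of 0.

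The arrays of replicate 1 were the farthest apart. The difference within replicate 1 exceeded those within replicates 2 and 3 in 8 of the 10 genes, which held for 32.1% of all genes. Among the 8 genes that rose, CD73+CD105+ replicate 1 was the highest of its group in 7, CD73+CD105- replicate 1 the lowest of its group in 6 and CD73+CD105- replicate 3 the highest in 5. For Pecam1 the difference was 4.20 in replicate 1 and 3.34 in the mean of replicates 2 and 3, for Cdh5 3.89 and 3.07, and for Emcn 5.09 and 4.37. For each of the 10 genes the mean of the replicate 1 arrays was within -0.05 to 0.08 of the mean of the other 4, as for most genes, and the part of this in the calls was not tested beyond the 2 fits given.

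Genes of proteins that work with these junctions were read beside all genes, of which 98.2% did not pass and 17.7% had an unadjusted p under 0.05. Of 10 genes of cadherin partners, their regulators and nectins 1 rose and 0 fell (median 0.13). It was Ptprb, the endothelial phosphatase VE-PTP that associates with VE-cadherin, at 5.60, 5.78 and 5.74 in CD73+CD105- and 8.83, 8.44 and 8.68 in CD73+CD105+ replicates 1, 2 and 3 (difference 2.94, SE 0.11, adjusted p = 0.000123). Vinculin (Vcl), next in size, did not pass at 0.17 (adjusted p = 0.353). Of 4 other cadherins 1 rose, Cdh13, the membrane-anchored T-cadherin, by 0.68 (SE 0.08, adjusted p = 0.0128), which did not pass with the term for replicate 1 (0.052). N-cadherin (Cdh2) and the mesenchymal Cdh11 did not pass at 0.90 and 0.71 (adjusted p = 0.118 and 0.0686).

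Of 10 tight junction scaffold genes 0 passed, with 5 at an unadjusted p under 0.05 in limma and a median of 0.05. Their largest differences were in Patj, a polarity scaffold (-0.45, adjusted p = 0.097), and Magi1 (0.44, adjusted p = 0.0859). Of 8 other claudins 0 passed, with 1 at an unadjusted p under 0.05 in limma and a median of -0.01; Cldn1 was at 0.23 and Cldn12 at -0.20. Of 8 JAM-related immunoglobulin genes 0 passed (3 at an unadjusted p under 0.05 in limma, median 0.04), with Cxadr, the coxsackievirus and adenovirus receptor of tight junctions, at -0.40 and Clmp at 0.32. Of 5 integrin chains that bind JAMs 0 passed (1 at an unadjusted p under 0.05 in limma, median 0.09), with Itga4 at 0.32 and Itgb1 at 0.15.

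On the sialomucin side, 0 of 9 other sialomucin genes passed and 0 had an unadjusted p under 0.05 in limma (median 0.02), with Muc1 at -0.40 and podoplanin (Pdpn) at 0.33. Of 10 genes of enzymes that build or sulphate mucin-type glycans 1 rose, B3gnt3, which extends the core chains that L-selectin ligands carry (difference 0.96, SE 0.14, adjusted p = 0.0217, or 0.0644 with the term for replicate 1), and the sulphotransferase Chst2 did not pass at 0.32 (adjusted p = 0.0928). Of 4 genes of proteins that tie podocalyxin and other surface proteins to actin 0 passed (2 at an unadjusted p under 0.05 in limma, median 0.09), with Slc9a3r2 at 0.33 and ezrin (Ezr) at -0.25. Among the selectins only Sele, the E-selectin of activated endothelium and of marrow vessels, was measured here. It was at 6.39, 6.42 and 6.25 in CD73+CD105- and 9.27, 9.48 and 8.93 in CD73+CD105+ replicates 1, 2 and 3, and rose by 2.87 (SE 0.14, adjusted p = 0.000272).

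**Figure D3:**
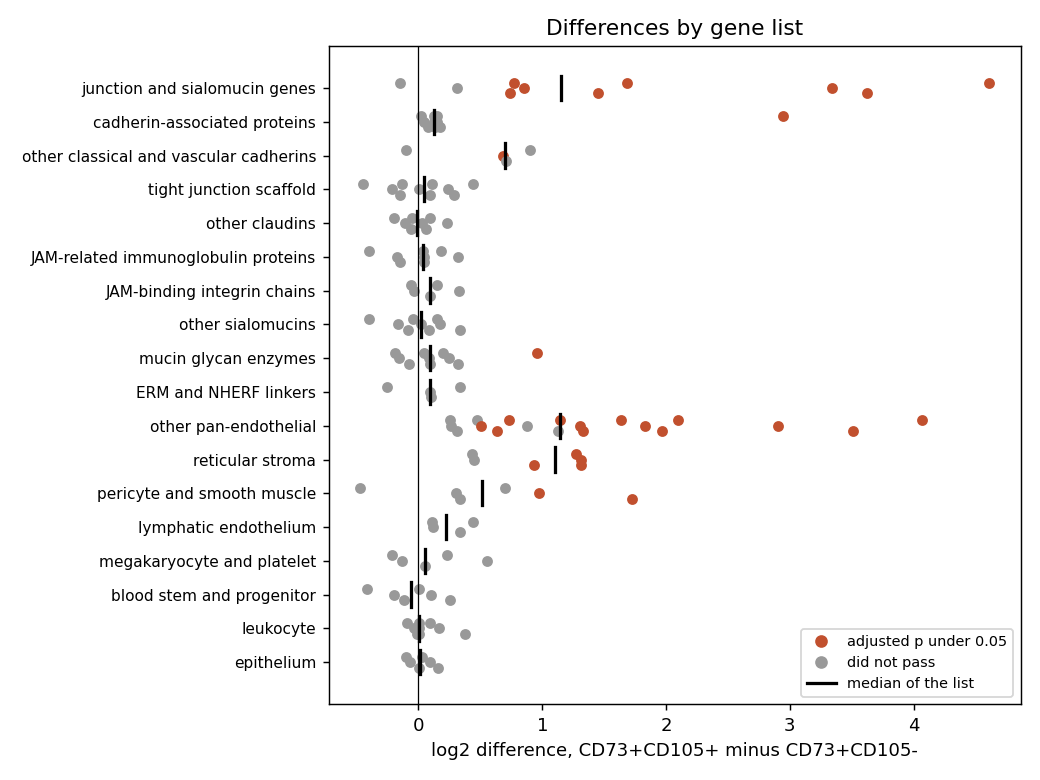
Log2 difference, CD73+CD105+ minus CD73+CD105- (x axis), of every measured gene of each list (rows); orange points had an adjusted p under 0.05, grey points did not, and black ticks are list medians. The junction and sialomucin genes and the other pan-endothelial genes spread far to the right (medians 1.15 and 1.14). Medians also lie right of 0 for reticular stroma genes (1.10), other cadherins (0.70) and pericyte and smooth muscle genes (0.52). Medians of scaffold, claudin, other sialomucin and leukocyte genes lie near 0. Single genes spread to both sides, from -0.45 to 0.44 among scaffold and from -0.40 to 0.33 among other sialomucin genes.

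Other cell type markers moved beside these genes. Of 19 other pan-endothelial genes 13 rose and 0 fell, with a median of 1.14 and 9 past the threshold with the term for replicate 1. Their mean level was 6.29 to 6.42 in CD73+CD105- and 7.70 to 7.89 in CD73+CD105+ samples. In all 19 every CD73+CD105+ array lay above every CD73+CD105- array, which held for 10.7% of all genes. The largest differences of the 19 were in the adhesion receptor Adgrl4 (4.07), the lectin-like receptor Cd93 (3.51) and Tek, the TIE2 receptor (2.91). Of 6 reticular stroma genes 4 rose (median 1.10, 1 with the term for replicate 1), with Adipoq at 1.32, Cxcl12 at 1.31 and Kitl at 1.27 and mean levels of 8.33 to 8.60 and 9.34 to 9.54. Of 6 pericyte and smooth muscle genes 2 rose, Rgs5 (1.72) and Tagln (0.98), with mean levels of 7.42 to 7.63 and 7.94 to 8.28. With the term for replicate 1 only Tagln passed (0.044, with Rgs5 at 0.0643). Every CD73+CD105+ array also lay above every CD73+CD105- array in all 6 reticular stroma genes and 4 of 6 pericyte and smooth muscle genes. In the same list Cspg4, named after its values were seen, was lower on every CD73+CD105+ array at -0.47 and did not pass (adjusted p = 0.063). Their part in the differences of the junction and sialomucin genes was not tested.

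Several of the 10 genes are also known from blood cells, whose part in the differences was not tested. Of 6 blood stem and progenitor genes 0 passed (2 at an unadjusted p under 0.05 in limma, median -0.06), with Slamf1 at -0.41 and Kit at 0.25, and in both populations 5 were dimmer than the receptor gene percentile. Of 5 megakaryocyte and platelet genes 0 passed (1 at an unadjusted p under 0.05 in limma, median 0.05), with Ppbp at 0.55 and Pf4 at 0.23. Of 4 lymphatic genes 0 passed (1 at an unadjusted p under 0.05 in limma, median 0.23), with Lyve1 at 0.44 and Pdpn at 0.33. Neither the 6 epithelial genes (median 0.01) nor the 4 erythroid genes (median -0.07) held any past the threshold, with Krt18 at 0.16, Cdh1 at -0.10, Alas2 at -0.15 and Epor at -0.11, and in limma 0 of either reached an unadjusted p under 0.05.

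The genes most like each of the 8 that rose were found by the root mean square distance between their 6 values after centring on the mean of each gene. Nearest to Pecam1 were Cd93 (0.252) and Adgrl4 (0.299), and nearest to Cdh5 were Cd93 (0.221) and Ptprb (0.228). Nearest to Emcn were the fatty acid transporter gene Cd36 (0.274) and, at 0.342, Fabp4, whose product carries fatty acids in fat cells and capillary endothelium. For F11r they were Clec14a (0.0596), an endothelial lectin-like gene, and the growth factor gene Fgf7 (0.142). For Cd34 they were Mctp1 (0.0921) and the efflux transporter gene Abcg2 (0.0981). For Esam they were Ahr (0.053) and Cdk19 (0.0535), for Jam2 Hfe (0.0551) and Pon2 (0.0611), and for Podxl Vegfd (0.0389) and Pakap (0.0502). Distances are smaller for genes with smaller differences, since many genes lie near them, and over 6 arrays in 2 groups they mainly reflect the size of the difference.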

How the data were processed

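Total RNA of 6 sorted marrow samples, 3 per population, was biotin-labelled and hybridised to 1 array each, per the labels. The deposited log2 values were made by the authors with RMA, per the submitters' processing notes. The version, probe annotation and build were not given in the sources used here. RMA equalises array distributions and compresses differences near background. Of 35556 probe sets, 21789 had exactly 1 gene symbol in the platform annotation, and the one with the highest mean over the 6 arrays was taken per gene; each of the 10 genes had 1 probe set. Differences were tested with limma 3.58.1 in R 4.3.3 (two-sided, lmFit, eBayes) over 19938 genes, with Benjamini-Hochberg adjustment, and the script was tested on simulated data. All 10 genes were named by rule, with up to 3 passing genes of each of the other lists (the 2 largest differences where under 2 passed). The 2 genes nearest to each of the 8 that rose were also named, leaving out the 10 genes, gene models and clones. The genes and lists were chosen with earlier results of these data known. Alternatives covered a replicate block, a replicate 1 term, arrays left out, scaling, weights, a filter on dim genes and probe set choice. Symbols of the lists with no single-symbol probe set were not analysed here.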

Additional observations from a re-analysis of the deposited data

How the results depend on the processing

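Of the 10 junction and sialomucin genes, 8 passed, and 6 to 7 did when 1 array was left out. In replicates 2 and 3 alone 4 passed, and among genes above the median level, a filter that leaves 6 of the 10, 5 did. The median difference of 1.15 became 2.39 under that filter and 1.47 in the replicate 1 arrays, a setting added after the data were seen. Over all genes, 363 passed. This became 215 with the replicate block, 101 with the replicate 1 term, 29 in replicates 2 and 3 and 1331 with array weights. With 1 array left out it became 86 to 293. The cause of these changes was not tested. The replicate numbers are not shown to pair samples: deviations of same-numbered arrays correlated at 0.0066 in replicate 2 and 0.10 in replicate 3. In replicate 1 they correlated at -0.88. That value follows from the balance of replicate 1 with the other 4 arrays, so it cannot speak for or against pairing. With the replicate block 6 of the 10 genes passed, and Jam2 (0.0624) and Podxl (0.0514) did not in limma. Pecam1, Cdh5, Emcn and F11r passed under every setting run in which they were tested. The difference of Jam3 turned positive in the replicate 1 arrays (0.41), and with array weights (0.066), and ranged from -0.30 to 0.048 with 1 array left out. Scaling the arrays again left the calls of the 10 genes as they were. Scanner files were not used here, so no detection limit was set.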
